A study of Arabidopsis thaliana with 12 samples.

Results

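The genes described here encode proteins of the small, 40S subunit of the cytosolic ribosome of Arabidopsis thaliana. The list held 60 loci, selected on gene family membership. A locus was measured where the array annotation ties a probe set to it alone. The probe set was to be chosen by its mean intensity over the 12 arrays, but every measured locus had exactly 1, so brightness excluded none. That left 34 loci of the 13333 genes with such a probe set. Of the other 26 loci, 12 lie on probe sets that match several genes and 14 have no named probe set here. By assignment from background knowledge, the 60 loci encode 24 proteins and the 34 measured encode 17. Some proteins of the subunit were therefore not measured. The family was picked with earlier results of these arrays known, so its counts are set beside the share over all probe sets and carry no test of their own.

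The 40S subunit binds the mRNA and matches its codons to tRNAs in the decoding centre, between a body with its platform and a movable head. In plants most of its proteins are encoded by small gene families, and growing tissues such as embryos and meristems carry high levels of their mRNAs. The gene table used here gives a ribosomal protein name to 12 of the 60 loci and to 0 of the 34 measured, so single loci are given by locus tag, with no protein name or role.

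The study profiled accession Col-0 on Affymetrix ATH1 arrays, 3 in each of 4 groups. Proembryo nuclei, suspensor nuclei and whole-embryo nuclei were isolated by flow cytometry with tissue-specific marker lines, whose promoters the sources used here do not name. They came from embryos of 2 to 16 cells, in ovules fixed with 0.1% paraformaldehyde. The suspensor is the file of cells that anchors the embryo, and the proembryo forms most of the later plant. Whole-embryo cells are intact embryos of 8 to 32 cells, pressed from the ovules and rinsed, with no fixation named and with another RNA kit. Stage, fixation and extraction therefore cannot be told apart from cells against nuclei. All plants grew in 16 h light and 8 h dark, and the labels name no mutation or other treatment. The titles call replicates biological without saying what was separate, so the spread behind each p-value may be partly technical.

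Levels are log2(intensity + 16), and differences are in log2 units on that scale. In pooled samples, less of a transcript per nucleus cannot be told apart from fewer nuclei that carry it. All 34 loci passed the filter on dim probe sets in each comparison, so none was lost there.

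Some features of the arrays accompany the results below. None of the 3 suspensor and 4 proembryo markers has a named probe set (0 measured), so the lineage labels were not checked by them. Of 7 seed coat markers only BAN was measured, at 4435 to 7835 intensity units in proembryo nuclei, 7828 to 11449 in the suspensor, 6403 to 7493 in nuclei of the whole embryo and 4780 to 16697 in cells. The 3 measured of 6 endosperm markers summed to 149 to 227, 227 to 387, 165 to 227 and 239 to 258 in that order. Hybridisation controls reached a log2 level of 12.15 ± 0.49 in proembryo nuclei, 12.76 ± 1.26 in the suspensor, 12.37 ± 0.56 in nuclei of the whole embryo and 11.66 ± 0.15 in cells (SD, n = 3). In that order of groups, the 3' signal of actin exceeded its 5' signal by 5.03 ± 0.20, 4.22 ± 0.44, 5.01 ± 0.29 and 5.31 ± 0.27 log2 units (SD, n = 3). For GAPDH the excess was 5.23 ± 0.29, 5.15 ± 0.70, 5.38 ± 0.11 and 4.999 ± 0.110, and for ubiquitin 4.61 ± 0.12, 5.01 ± 0.37, 4.68 ± 0.17 and 4.28 ± 0.24. The suspensor was thus lowest of the groups for actin, highest for ubiquitin and neither for GAPDH. The part of these markers and controls in the results was not tested, though some values with the hybridisation controls in the fit are given.

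Suspensor nuclei stood lowest among the 4 groups for most of the 34 measured small-subunit genes. Their group mean was the lowest for 31 of 34 loci (28.5% of the 13474 probe sets past the filter over the 12 arrays) and the highest for 0 (29.6%). Cells had the highest mean for 23 loci (33%), proembryo nuclei for 7 (18.9%) and whole-embryo nuclei for 4 (18.5%). The median level over the 34 loci was 11.61, 11.54 and 11.46 on the 3 suspensor arrays. It was 12.37, 11.97 and 11.93 on the proembryo arrays and 12.02, 12.30 and 11.74 on those of whole-embryo nuclei. The cells stood at 11.95, 12.41 and 12.77. Each suspensor array thus lay below each of the other 9, while the other groups overlapped one another.

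**Figure D1:**
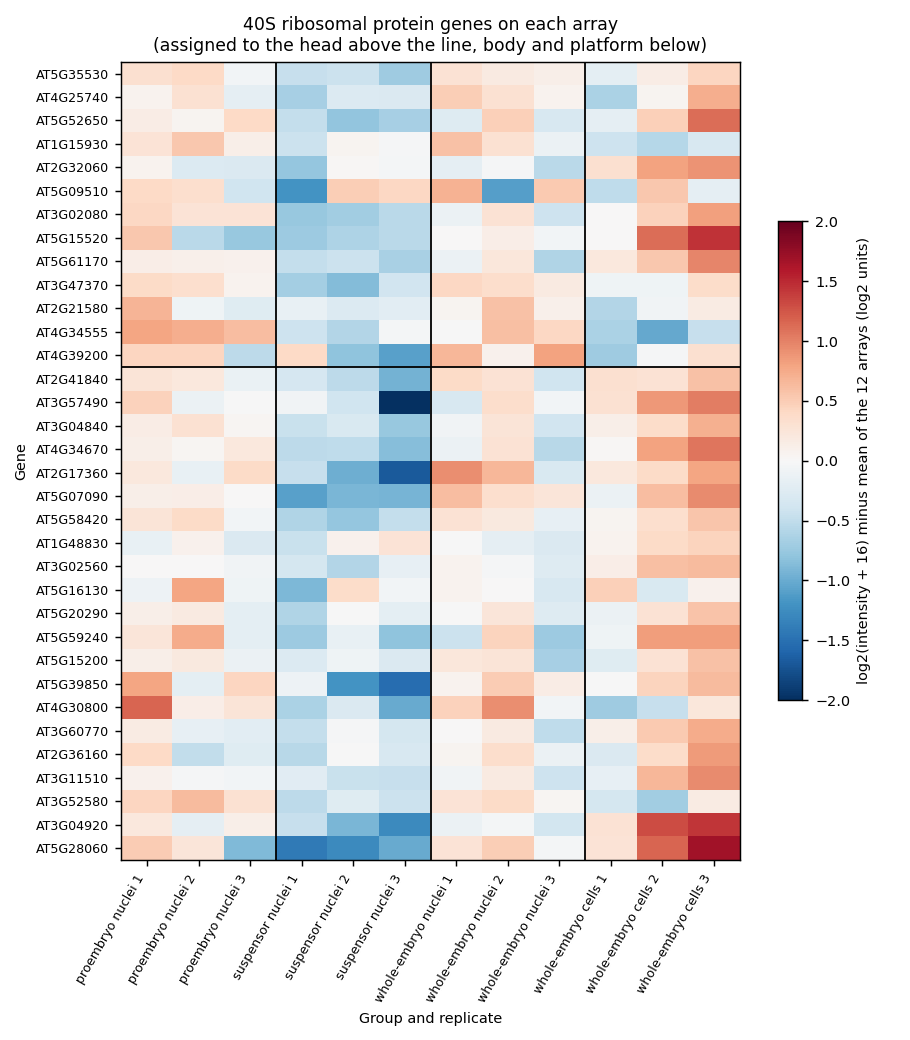
Each row is a gene and each column an array, coloured by its log2(intensity + 16) minus the gene's mean over the 12 arrays, in log2 units, with colours held at -2 and 2. Suspensor nuclei have the lowest group mean for 31 of 34 genes, and within the cells replicate 1 is lowest for 29 and replicate 3 highest for 31.

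Suspensor against proembryo nuclei compares the lineages of the early embryo. Most 40S genes read lower in the suspensor, by a median of 0.69 log2 units. The log2 difference was below 0 for 33 of 34 loci, against 49.1% of the 12787 probe sets tested, and above 0 for 1 (50.9%). Its median was -0.69, against 0.01 over all probe sets, and it ran from -1.28 to 0.09. The arrays did not overlap for 20 loci, all lower in the suspensor (9.66% of all probe sets lower, 9.61% higher). By limma 4 loci fell past an adjusted p of 0.05 and 0 rose. That is 11.8% of the loci, where 2.03% of all probe sets passed, 1.34% as lower and 0.696% as higher. An unadjusted p under 0.05 was reached by 19 loci, against 16% of all probe sets.

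The smallest p belonged to AT5G07090, which read 10.24, 10.26 and 10.13 in proembryo nuclei and 9.04, 9.21 and 9.19 in the suspensor. Replicates lay close together in both groups and did not overlap between them. The gene fell by 1.06, or 2.09-fold (SE 0.226, n = 3 per group, limma adjusted p = 0.0220). AT4G34555 stood at 11.55, 11.50 and 11.38 in proembryo nuclei and at 10.36, 10.18 and 10.73 in the suspensor. All suspensor arrays were lower, and the gene fell by 1.06, or 2.08-fold (SE 0.238, limma adjusted p = 0.0293).

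AT3G02080 read 12.40, 12.25 and 12.25 in proembryo nuclei and 11.22, 11.29 and 11.45 in the suspensor. The ranges lay apart, and the gene fell by 0.98 (SE 0.227, limma adjusted p = 0.0317). AT3G47370 read 12.84, 12.81 and 12.53 against 11.79, 11.59 and 12.09. Again each suspensor array was below each proembryo array, and the gene fell by 0.90 (SE 0.218, limma adjusted p = 0.0394).

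Other loci had differences as large or larger without passing. AT5G39850 had the largest, with 8.98, 7.99 and 8.62 in proembryo nuclei and 8.08, 6.99 and 6.66 in the suspensor. Its ranges overlapped, and the difference was -1.28 (SE 0.358, limma adjusted p = 0.0718). AT5G28060 differed by -1.18 (SE 0.319) and AT3G04920 by -0.93 (SE 0.251), both at a limma adjusted p of 0.0625. Only AT1G48830 lay above 0, at 13.27, 13.50 and 13.13 in proembryo nuclei and 12.96, 13.51 and 13.69 in the suspensor. Those ranges overlapped (difference 0.09, SE 0.232).

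**Figure D2:**
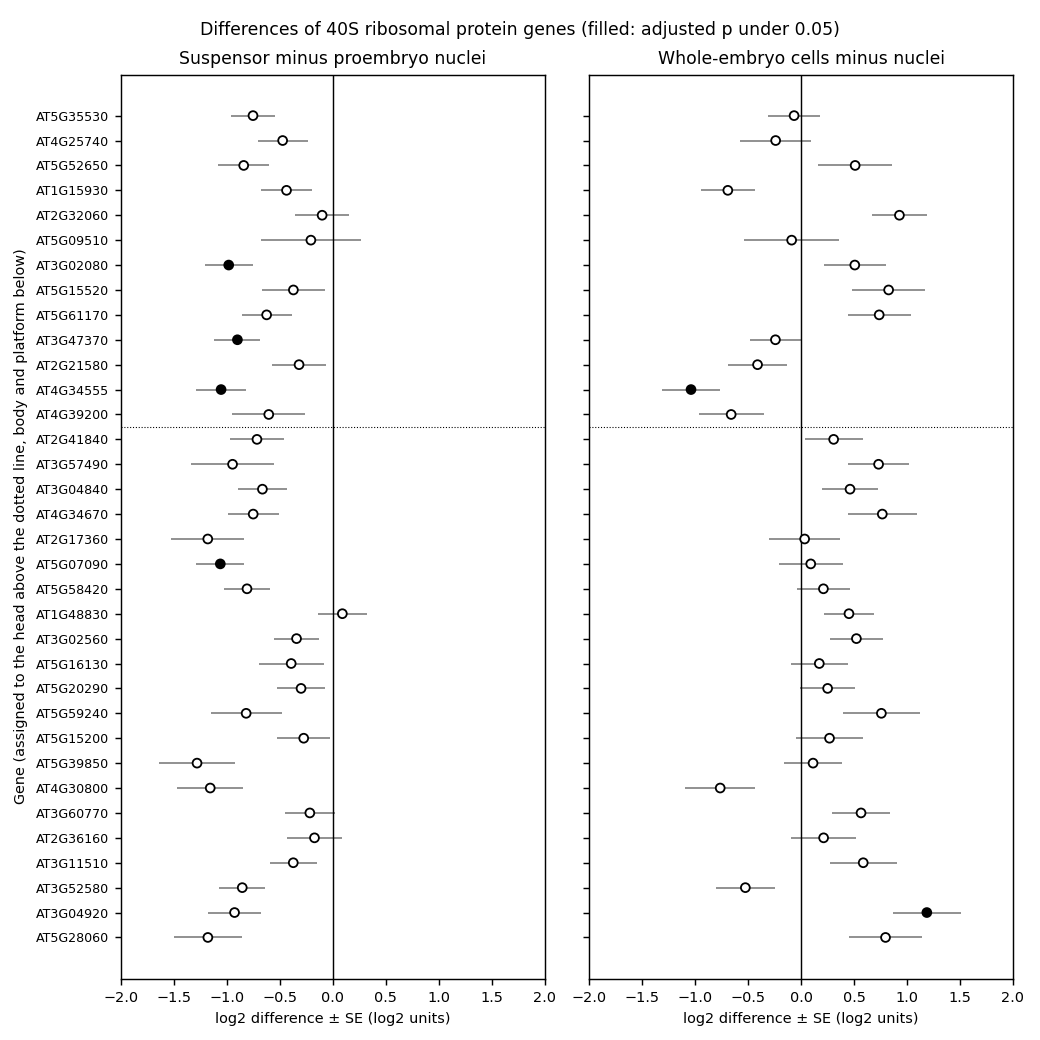
The log2 difference of each gene, with its standard error as a bar, is plotted for suspensor minus proembryo nuclei on the left and whole-embryo cells minus nuclei on the right (3 arrays a group). On the left 33 of 34 genes lie below 0, and on the right 24 lie above 0; filled points passed an adjusted p of 0.05.

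The number of calls depended on single arrays, among all probe sets as among these loci. It was 0 without proembryo replicate 1 or 2 or suspensor replicate 2, where 0.901%, 0.944% and 0.785% of all probe sets passed. It was 1 without proembryo replicate 3 (0.68%), a locus not among the 4 that passed with all arrays. Without suspensor replicate 1 it was 7 (3.36%), which included those 4. Without suspensor replicate 3 it was 2 (0.891%), both among those 4. The median difference stayed between -0.76 and -0.54 in these fits. With the hybridisation control level as a covariate it was -0.60, and the same 4 loci passed (1.27% of all probe sets).

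Suspensor nuclei were next compared with nuclei of whole embryos, a comparison that shares the suspensor arrays with the one above. The difference was below 0 for 33 of 34 loci (50.4% of all probe sets) and above 0 for 1 (49.6%), with a median of -0.59 against -0.01 over all. The arrays did not overlap for 16 loci, all lower (9.74% of all probe sets lower, 9.16% higher). By limma 4 loci fell and 0 rose, or 11.8% of the loci against 1.56% of all probe sets (0.962% lower, 0.594% higher).

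AT5G07090 stood at 10.74, 10.45 and 10.36 in whole-embryo nuclei, above each suspensor array. It fell by 1.37, or 2.58-fold, in the suspensor (SE 0.226, limma adjusted p = 0.00797). AT5G28060 read 9.75, 9.96 and 9.43 in whole-embryo nuclei and 8.07, 8.21 and 8.46 in the suspensor. These ranges lay well apart, and the gene fell by 1.47 (SE 0.319, limma adjusted p = 0.0312).

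AT2G17360 read 10.28, 10.02 and 9.04 in whole-embryo nuclei and 8.89, 8.38 and 7.68 in the suspensor. Both groups were widely spread but did not overlap, and the gene fell by 1.46 (SE 0.343, limma adjusted p = 0.0413). AT3G47370, at 12.87, 12.82 and 12.64 in whole-embryo nuclei, fell by 0.95 (SE 0.218, limma adjusted p = 0.0363). The count of 4 became 1 without suspensor replicate 2, where 0.457% of all probe sets passed. It became 0 without whole-embryo nuclei replicate 1 (0.296%) and 1 without whole-embryo nuclei replicate 2 (0.215%).

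For 13 of 34 loci each suspensor array lay below all 6 other nuclei arrays (5.32% of all probe sets), and for 0 above them (4.57%). For 9 loci the suspensor arrays lay below all 9 others, cells included (3% of all probe sets).

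**Figure D3:**
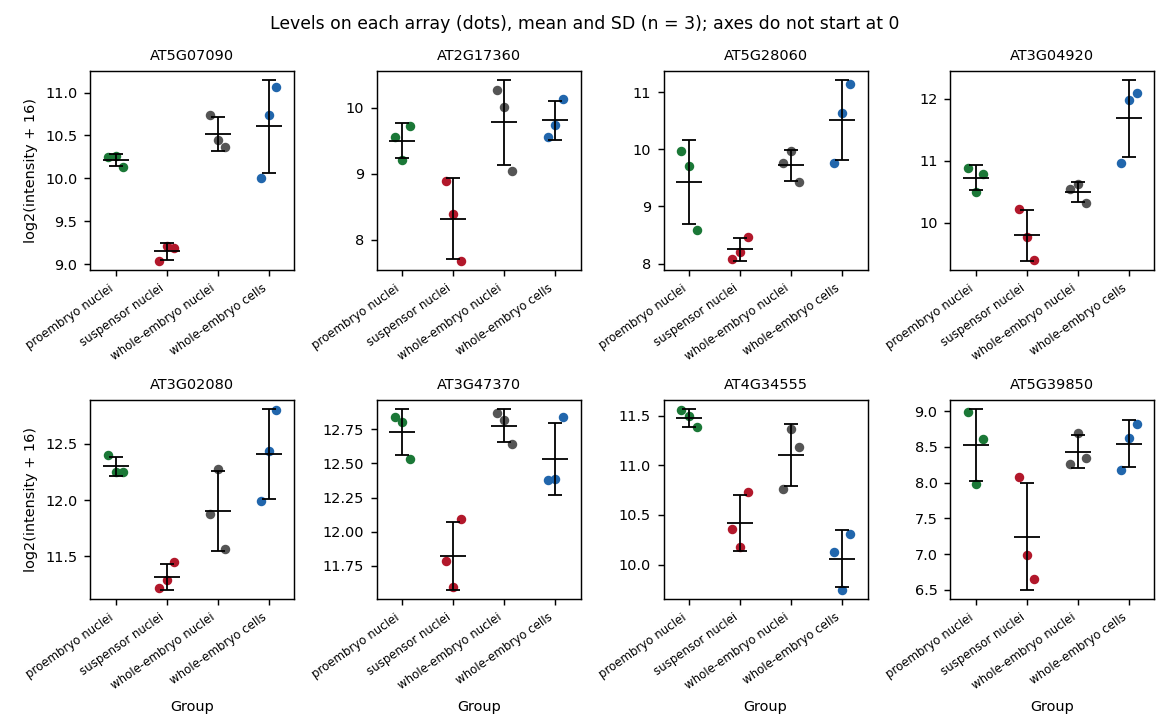
Dots are the log2(intensity + 16) of single arrays, with the mean and SD of 3 arrays as bars, for the 7 genes that passed a threshold in any comparison and for AT5G39850, which had the largest suspensor difference without passing. The suspensor mean is the lowest in every panel but that of AT4G34555, where the mean of whole-embryo cells is lower.

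Between proembryo and whole-embryo nuclei no difference of these genes was detected. By limma 0 of 34 loci passed, as did 0 of 12787 probe sets (0%). An unadjusted p under 0.05 was reached by 0 loci, against 3.14% of all probe sets. The median difference, proembryo minus whole embryo, was 0.07 against -0.01 over all, with 25 loci above 0 (48.6%) and 9 below (51.4%). The arrays did not overlap for 1 locus as higher (3.86%) and 1 as lower (4.38%).

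The smallest p belonged to AT3G02080, at 11.87, 12.27 and 11.57 in whole-embryo nuclei, overlapping its proembryo arrays (difference 0.40, SE 0.227). AT4G34555 stood at 10.76, 11.36 and 11.18 in whole-embryo nuclei, just below its proembryo arrays (0.38, SE 0.238). AT5G59240 read 8.91, 9.41 and 8.47 in proembryo nuclei and 8.25, 9.12 and 7.94 in whole-embryo nuclei. The ranges of AT5G59240 overlapped (0.50, SE 0.336). AT5G07090 was the locus below without overlap (-0.30, SE 0.226). These 4 had a limma adjusted p of 1. The mean of whole-embryo nuclei fell between those of both lineages for 24 of 34 loci. No share over all probe sets is given for this count. It rests on the same group means as the counts above and below 0, so it is not a separate result.

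Whole-embryo cells against whole-embryo nuclei compares cellular with nuclear RNA, and here the 40S genes split. The difference, cells minus nuclei, was above 0 for 24 of 34 loci (50.5% of the 11867 probe sets tested) and below 0 for 10 (49.5%). Its median was 0.26 against 0.01 over all, and it ran from -1.04 to 1.19. By limma 2 loci passed, 1 in each direction, or 5.88% of the loci where 6.77% of all probe sets passed (2.71% higher, 4.05% lower), a share near the background. The arrays did not overlap for 4 loci as higher (13.4% of all probe sets) and 2 as lower (15.2%).

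AT3G04920 rose, from 10.55, 10.63 and 10.31 in nuclei to 10.96, 11.99 and 12.10 in cells. Cells replicate 1 was the lowest of its group but above each array of whole-embryo nuclei. The gene was 2.28-fold higher in cells (log2 difference 1.19, SE 0.319, limma adjusted p = 0.0480). AT4G34555 fell, to 10.13, 9.75 and 10.31 in cells, below its arrays of whole-embryo nuclei though overlapping those of the suspensor. It fell by 1.04, or 2.06-fold (SE 0.273, limma adjusted p = 0.0447).

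AT2G32060 and AT1G15930 came next by p, in opposite directions and short of the threshold. AT2G32060 read 12.32, 12.48 and 11.97 in nuclei and 12.83, 13.32 and 13.41 in cells, higher without overlap (0.93, SE 0.262, limma adjusted p = 0.0570). AT1G15930 read 13.63, 13.36 and 12.93 in nuclei and 12.64, 12.47 and 12.73 in cells, lower without overlap (-0.69, SE 0.256, limma adjusted p = 0.128).

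The count of 2 was 0 without whole-embryo nuclei replicate 1, 2 or 3, where 1.81%, 2.29% and 1.92% of all probe sets passed. It was also 0 without cells replicate 2 (2.2%), and 1 without cells replicate 3 (7.01%). Without cells replicate 1 it was 7, of which 6 were higher, beside 11.4% of all probe sets. With the hybridisation control level as a covariate it was 0, beside 8 of 11867 probe sets in place of 803, and the median of the loci was 0.12. That level was 11.57, 11.59 and 11.83 in cells and 12.32, 11.84 and 12.95 in whole-embryo nuclei. The groups did not overlap in it, so this fit cannot tell the control level apart from cells against nuclei.

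The loci were also split by place in the subunit, from background knowledge that the gene table does not hold. The 13 loci assigned to the head had a median of -0.61 in suspensor minus proembryo nuclei, with 3 called, and the 21 assigned to the body and platform had -0.75, with 1 called, where 2.03% of all probe sets passed. In suspensor minus whole-embryo nuclei the order was the other way round, with a median of -0.60 and 1 called for the head and -0.50 and 3 called for the body and platform (1.56% of all probe sets). In cells minus nuclei, 5 of 13 head loci and 19 of 21 body and platform loci were above 0, with medians of -0.09 and 0.31. The difference between these places was not tested.

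In 3 of the 4 groups a single array was the lowest for most of the loci. In cells replicate 1 was lowest for 29 of 34 loci (36.8% of the same probe sets) and replicate 3 highest for 31 (37.9%). The median SD of a locus there was 0.388, against 0.209 in proembryo, 0.243 in suspensor and 0.298 in whole-embryo nuclei. BAN ran opposite in cells, at a log2 level of 14.03, 13.81 and 12.23 in replicates 1, 2 and 3. Replicate 3 was lowest for 28 loci in whole-embryo nuclei (31% of all probe sets) and for 24 in proembryo nuclei (32.9%). The suspensor showed no such array: replicates 1, 2 and 3 were lowest for 14, 6 and 14 loci and highest for 9, 17 and 8. Hybridisation controls were the highest of their group on replicate 3 of whole-embryo nuclei (12.95) and the lowest on replicate 3 of the proembryo (11.67).

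**Figure D4:**
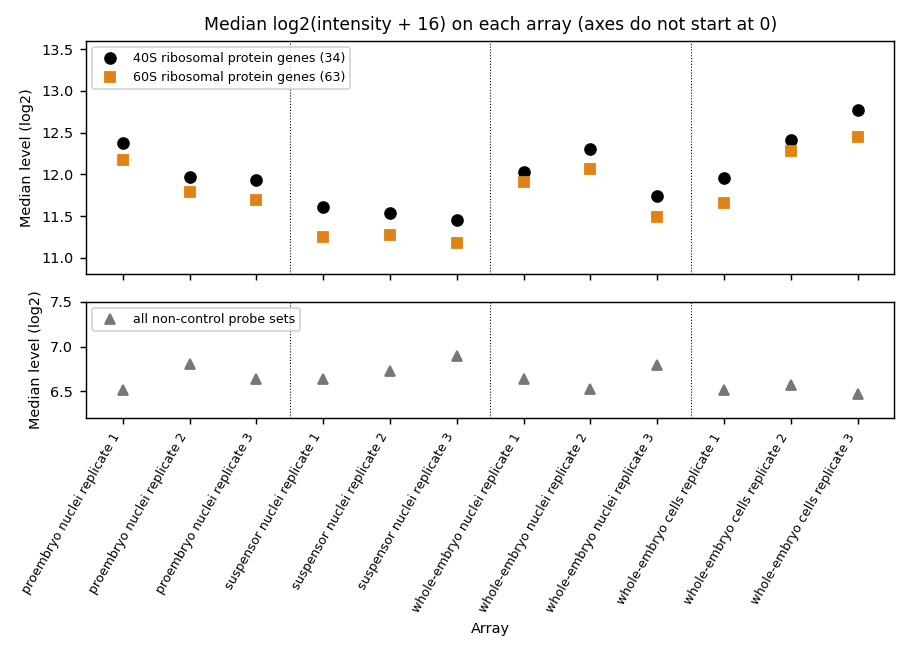
The median log2(intensity + 16) on each array is shown for the 34 small-subunit genes (circles), 63 loci listed as large-subunit genes (squares) and all non-control probe sets (triangles, lower panel). Both ribosomal medians are lowest on the 3 suspensor arrays, where the small-subunit genes stand at 11.61, 11.54 and 11.46.

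Loci listed as large-subunit genes, from the same kind of background knowledge, gave the nearest comparison: 63 of 102 were measured and 61 passed the filter. In suspensor against proembryo nuclei their median was -0.61, with 56 of 61 below 0 (49.1% of all probe sets). There 9 were lower past the threshold, or 14.8% against 2.03% of all probe sets (1.34% lower). Against whole-embryo nuclei the median was -0.51, with 7 lower past the threshold, or 11.5% against 1.56% (0.962% lower). In cells minus nuclei it was 0.18, with 39 of 61 above 0 (50.5%). There 2 passed the threshold, both lower, or 3.28% against 6.77% of all probe sets (4.05% lower), a share below the background.

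Few genes that act beside the 40S subunit had a named probe set of their own here, which does not mean that the array lacks them. Of 13 ribosome assembly factors 4 were measured, all below 0 in suspensor against proembryo nuclei (49.1% of all probe sets). Their median was -1.20 and, where 2.03% of all probe sets passed the threshold, 1 factor did. It was AT5G41190, for which the gene table lists the synonym NOB1, in yeast the endonuclease that makes the final cut in the RNA of the small subunit. It fell by 1.36 (SE 0.294, limma adjusted p = 0.0231). Against whole-embryo nuclei AT5G41190 differed by -1.05 and did not pass (SE 0.294, limma adjusted p = 0.0889). There 0 of the 4 factors passed, beside 1.56% of all probe sets. DIM1A, an adenosine dimethyl transferase by its table entry, differed by -0.74 (SE 0.348). The 7 measured of 29 initiation factors were all below 0, with a median of -0.41 and 0 called. EIF4A-2, an RNA helicase of initiation, differed by -0.61 (SE 0.240). Of 11 elongation factors 2 were measured, both below 0 with 0 called. RAPTOR1 and RAPTOR2, partners of the TOR kinase that promotes ribosome synthesis, stood at 0.31 (SE 0.347) and -0.81 (SE 0.305), and neither passed. In cells against nuclei 1 assembly factor rose, and 0 initiation or elongation factors passed, where 6.77% of all probe sets passed (2.71% higher).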

How the data were processed

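The authors deposited linear intensity values for each probe set. MAS5 and affy 1.32.1 are named per the submitters' processing notes, without their roles. The mean trimmed by 2% at each end was 200.02 on all 12 arrays, and this scaling was left as it was. Of 22746 non-control probe sets, 13513 had 1 gene in the platform annotation, 503 several and 8730 none here. Names came from a TAIR10.1 gene table.

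limma 3.58.1 (R 4.3.3) was run with lmFit and a trended eBayes on log2(intensity + 16). Probe sets above their array's median in at least 3 arrays of the fit were kept, with Benjamini-Hochberg adjustment over all kept. The nuclei had a joint fit of 9 arrays; cells and whole-embryo nuclei had one of 6. The offset understates changes of dim genes. The procedure was run on simulated data with known changes. Its noise was drawn independently for each probe set and array, so shifts shared by many loci on an array were not covered.

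Array values are given for loci past the threshold and, where fewer than 4 passed, the 4 smallest p-values. AT5G39850, AT1G48830 and the AT5G28060 and AT3G04920 values beside them were chosen after their values were seen. Pairs of genes for the same protein were to be described too, but were left out because the gene table does not name these proteins. Members and lists were chosen with earlier results of these data known. Same-numbered arrays were not treated as pairs. Figures used matplotlib 3.10.9.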

Additional observations from a re-analysis of the deposited data

How the results depend on the processing

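The median difference of the 34 loci kept its sign in suspensor against proembryo nuclei, suspensor against whole-embryo nuclei and cells against nuclei under each alternative run. With 1 array left out it lay between -0.76 and -0.54, between -0.70 and -0.48, and between 0.12 and 0.46. For proembryo against whole-embryo nuclei it ranged from -0.05 to 0.17, with -0.01 without proembryo replicate 1 and -0.0499 without whole-embryo nuclei replicate 3, and 0 loci passed under each alternative. Counts of calls moved more, and the cause was not tested. In suspensor against proembryo nuclei (4) the count was 2 without the filter, which tests more probe sets (0.734% of all passed). It was 0 with median centring (0.485%), without the intensity trend (0.133%) and with all 12 arrays in the fit (1.05%). In suspensor against whole-embryo nuclei (4) it was 2, 1, 0 and 1 in that order. The shares of all probe sets there were 0.457%, 0.383%, 0.0704% and 0.408%. In cells against nuclei (2) the count was 0 with a pseudocount of 4 (5.6%), without the filter (2.03%) and without the trend (5.81%). It was 3 with quantile normalization (6.69%) and 3 with all 12 arrays in the fit (6.74%). It was 1 with median centring (6.65%) and 0 with the hybridisation control covariate (0.0674%), which was chosen after seeing the data. That covariate did not overlap between cells and whole-embryo nuclei, so its fit cannot tell it apart from the group. With 1 array left out the counts ran from 0 to 7, 0 to 5 and 0 to 7. The shares of all probe sets ran from 0.68% to 3.36%, 0.215% to 2.47% and 1.81% to 11.4%. With quantile normalization the medians of the loci, in the same order, were -0.57, -0.49 and 0.27, from -0.69, -0.59 and 0.26. The array medians of the loci were 11.46 to 12.77, where those of all probe sets were 6.47 to 6.90. Shares over probe sets of like brightness are not given. Median centring moved the median of all probe sets to -0.11 in suspensor against whole-embryo nuclei, where the loci stood at -0.70, and to 0.14 in cells against nuclei, where they stood at 0.39. With a replicate block the calls, in the same order, were 4, 3 and 0, beside 2.23%, 1.59% and 6.52% of all probe sets. Same-numbered arrays correlated at -0.14 to 0.11 in their deviations from the group means and share only a number. Averaging several probe sets of a locus was not run, because each measured locus has 1.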
